A study of Mus musculus with 10 samples.

Results

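Major histocompatibility complex (MHC) class II presentation genes were examined in colon tumors of mice that kept or had lost Wls, the carrier protein that Wnt ligands need for secretion, in the intestinal epithelium. The 9 genes, of 16875 gene names measured, were taken by name. They had been chosen by measured values from these same tumors, because class II genes had been seen to differ between the groups, so their differences are given as a description and without a test. The tumors had been induced on a C57BL/6 background with the carcinogen azoxymethane and 3 cycles of the colitis agent dextran sodium sulfate (DSS, 2% in the drinking water), started at an age of 6 to 10 weeks, preferentially in females according to the methods. Control tumors (n = 5) carried Wls flox/flox. Villin-WlscKO tumors (n = 5) carried Villin-Cre ERT2 and Wls flox/flox, and were collected 30 days after the first of 5 injections of tamoxifen at 80 mg/kg. The Villin promoter drives this recombinase in intestinal epithelium, so the stromal and immune cells of a tumor keep Wls. Control tumors are described as without tamoxifen unless otherwise stated. The number of mice is not given, so n counts tumors and each p measures the spread between them.

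MHC class II molecules carry peptides from endosomes to the cell surface, where CD4 T cells read them. An alpha and a beta chain assemble around the invariant chain, which blocks the groove until endosomal proteases cut it down to a short remnant. The H2-DM heterodimer then exchanges that remnant for antigen peptides. Dendritic cells, macrophages and B cells express the pathway constitutively, and intestinal epithelial cells can express it when exposed to interferon-gamma. In both settings the coactivator Ciita switches it on, by binding a complex of factors at short X and Y box sequences before these genes.

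Wls itself lay between 61.3 and 79.9 FPKM in control tumors, and in the Villin-WlscKO group it lay between 2.03 and 11.8 FPKM. FPKM stands for fragments per kilobase of transcript, scaled to the mapped reads, and so is a level per length. The groups also differed in sex. The female-specific Xist had 0.0366 to 0.420 FPKM in control tumors against 439 to 701 FPKM in the Villin-WlscKO group, and the Y-linked Eif2s3y had 30.4 to 46.6 against 0 to 0.138 FPKM. Loss of Wls, tamoxifen and sex cannot be told apart in the comparisons of the groups. Villin-WlscKO tumors 2 and 3 stood apart in squamous epithelial genes, with a summed level of 1048 and 1349 FPKM over 7 markers against 12.9 to 215 FPKM in the other 8 tumors. Tumors 2 and 3 also kept the most Wls of their group, 11.6 and 11.8 FPKM, against 2.03 to 3.61 FPKM in tumors 1, 4 and 5. How the squamous signal and the remaining Wls relate was not tested. Read depth is unknown, since no read numbers could be recovered from FPKM. Differences subtract the control mean of log2(FPKM + 1) from the Villin-WlscKO mean and carry the standard error (SE) that limma gave.

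All 9 genes had higher mean levels in Villin-WlscKO tumors, and for 8 of them each of the 5 Villin-WlscKO tumors lay above every control tumor. The exception was Ifi30. Of all 16757 genes tested (those with a mean of at least 0.5 FPKM, which all 9 genes passed), 5.33% had groups that did not overlap in this direction. As the genes had been selected on this contrast, nothing is read from the count. The sizes fell into 2 sets. Ciita, the class II chains, Cd74 and the H2-DM genes had log2 differences between 2.30 and 3.03, whereas those of the endosomal enzymes Ctss and Ifi30 were 0.38 and 0.45. The median difference over the 9 genes was 2.33, beside 0.0073 over all genes tested.

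**Figure D1:**
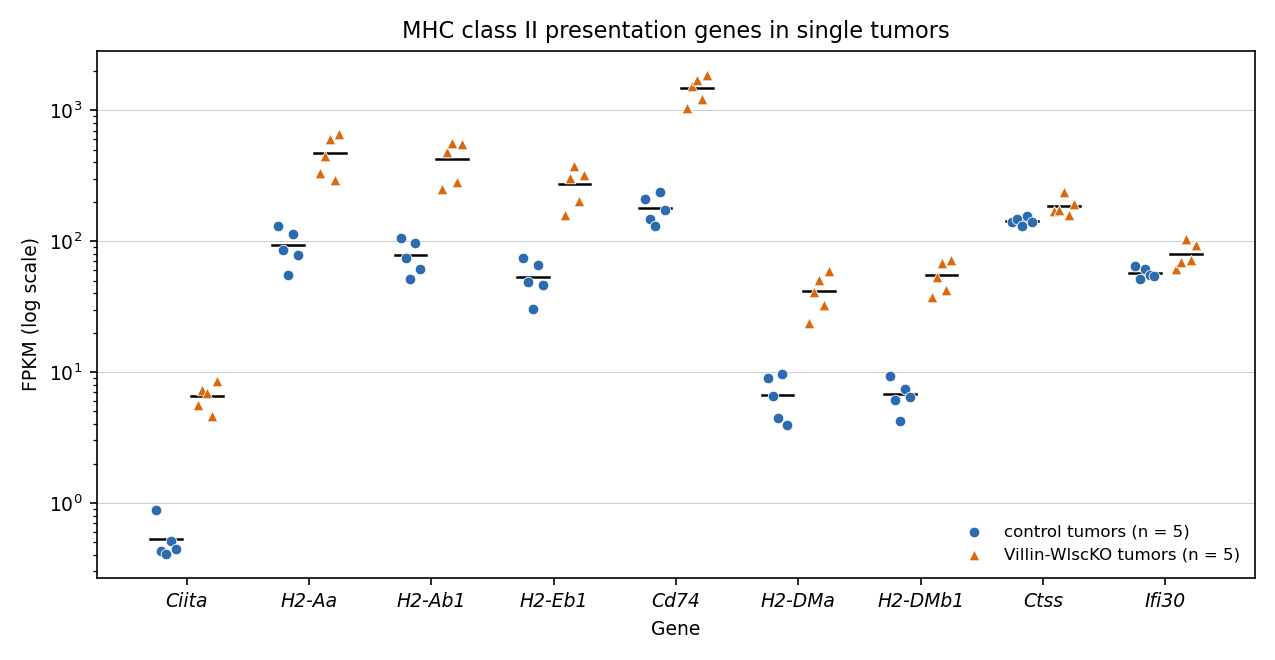
Level of each class II presentation gene in each tumor (FPKM, log scale), with circles for the 5 control and triangles for the 5 Villin-WlscKO tumors and a bar at the mean of each group. Every triangle lies above every circle for all genes but Ifi30, with a wide gap for Ciita and Cd74 and a narrow one for Ctss.

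Ciita (ENSMUSG00000022504.10, chr16:10480059-10528418, plus strand) encodes the transactivator that controls the pathway. It was the lowest of the 9 genes in every tumor. In control tumors 1 to 5 it measured 0.875, 0.430, 0.408, 0.508 and 0.445 FPKM. In Villin-WlscKO tumors 1 to 5 it measured 5.63, 7.33, 6.94, 4.64 and 8.54 FPKM. Control tumor 1 was above the other controls, and even so the lowest Villin-WlscKO tumor was 5.30 times as high as it. The means were 0.533 ± 0.195 FPKM (SD, n = 5) and 6.61 ± 1.51 FPKM (SD, n = 5), a ratio of 12.4, the largest among the 9. The log2 difference was 2.30 (SE 0.15), and because the control level is below the pseudocount of 1 it rose to 3.42 with a pseudocount of 0.1. Ciita overlaps Dexi on the opposite strand, and the tools were run with default parameters, which do not use strand, so reads of the pair may not be told apart. Dexi lay between 8.88 and 17.1 FPKM over all 10 tumors, with groups that overlapped.

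H2-Aa (ENSMUSG00000036594.15, chr17:34282744-34287823, minus strand) encodes the alpha chain of the class II molecule I-A. In the 5 control tumors it measured 130.3, 85.7, 55.1, 114 and 78.4 FPKM. The 5 Villin-WlscKO tumors gave 334.5, 449.9, 609, 295 and 656 FPKM. The lowest of these, tumor 4, was 2.26 times as high as the highest control, tumor 1. The means of 92.7 ± 29.8 and 469 ± 161 FPKM (SD, n = 5 each) gave a log2 difference of 2.32 (SE 0.28).

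H2-Ab1 (ENSMUSG00000073421.6, chr17:34257689-34269419, plus strand) encodes the beta chain that pairs with H2-Aa. Control tumors 1 to 5 had 106, 74.2, 51.8, 96.3 and 61.7 FPKM. Villin-WlscKO tumors 1 to 5 had 249, 481, 561, 286 and 552 FPKM. As for H2-Aa, tumors 2, 3 and 5 were high among the Villin-WlscKO tumors and tumors 1 and 4 were low, all above the controls. The means were 78.0 ± 22.9 and 426 ± 149 FPKM (SD, n = 5 each), and the log2 difference was 2.40 (SE 0.28).

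H2-Eb1 (ENSMUSG00000060586.11, chr17:34305867-34316674, plus strand) encodes a beta chain of I-E, a molecule that C57BL/6 mice do not bring to the surface because their alpha chain gene is defective. Its transcript measured 74.8, 48.5, 30.3, 65.8 and 45.9 FPKM in the control tumors. In the Villin-WlscKO tumors it measured 158, 303, 374, 203 and 320.0 FPKM. The groups did not overlap, and the lowest Villin-WlscKO tumor was 2.12 times as high as the highest control. Means of 53.1 ± 17.5 and 272 ± 88.5 FPKM (SD, n = 5 each) gave a log2 difference of 2.33 (SE 0.28). The antisense gene Gm20513 overlaps it.

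The proportions of the 3 chains overlapped between the groups. H2-Aa over H2-Ab1 ranged from 1.06 to 1.27 in control (mean 1.18 ± 0.0781 SD, n = 5) and from 0.935 to 1.35 in Villin-WlscKO tumors (mean 1.12 ± 0.157 SD, n = 5), and H2-Eb1 over H2-Ab1 ranged from 0.586 to 0.743 and from 0.580 to 0.712. The ratio of H2-Ab1 to its regulator Ciita did not overlap, as it ranged from 121 to 189 in control and from 44.2 to 80.9 in Villin-WlscKO tumors. Both genes were chosen by this contrast, and the control ratio rests on Ciita at 0.408 to 0.875 FPKM. Nothing is therefore read from that separation.

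Promoter sequences from RefSeq (GRCm38.p6) matched 6 of the 9 genes and H2-DMb2, and 4 are shown, those of H2-Aa, H2-Eb1 and H2-DMb2 for the X or Y box elements through which Ciita acts, and that of Ctss for contrast, since it holds an interferon-stimulated core instead. The sequences run from 5′ to 3′. Capitals mark the X box form (AACTGATGATG or AACCGATGATG, searched with any base in the fourth position), the Y box core TGATTGG, the TGACGTCA form of the X2 box and the interferon-stimulated core (GAAACCGAAA, searched with any bases in its middle pair of positions), each searched on both strands in the 250 bases before the start. H2-Aa is at chr17:34287824-34287973 (minus strand), H2-Eb1 at chr17:34305721-34305866, H2-DMb2 at chr17:34145086-34145235 and Ctss at chr3:95526636-95526785 (plus strand).
H2-Aa: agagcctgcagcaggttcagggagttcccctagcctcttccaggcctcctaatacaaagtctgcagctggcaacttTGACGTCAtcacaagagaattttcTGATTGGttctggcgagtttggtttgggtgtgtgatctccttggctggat
H2-Eb1: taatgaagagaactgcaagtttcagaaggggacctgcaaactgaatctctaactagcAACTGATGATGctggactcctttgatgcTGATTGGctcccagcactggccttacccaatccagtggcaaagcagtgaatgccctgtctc
H2-DMb2: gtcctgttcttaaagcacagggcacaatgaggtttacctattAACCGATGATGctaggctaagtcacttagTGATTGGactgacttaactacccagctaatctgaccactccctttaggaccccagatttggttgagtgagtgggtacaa
Ctss: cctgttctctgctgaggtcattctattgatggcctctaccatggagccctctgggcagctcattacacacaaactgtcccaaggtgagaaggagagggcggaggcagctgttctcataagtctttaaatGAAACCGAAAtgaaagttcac

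The X box form and the Y box core stood together in H2-Eb1 (89 to 79 and 61 to 55 bases before the start), in H2-DMb2 (121 to 111 and 92 to 86) and in H2-DMb1 (92 to 82 and 63 to 57, not shown because the window overlaps an exon). Both were found in 0.0213% of 32851 promoters, the X box form in 0.0487% and the Y box core in 7.23%. H2-Aa had the Y box core 50 to 44 bases and the TGACGTCA form 74 to 67 bases before its start, the latter found in 1.55% of promoters. Ctss held none of these and had the interferon-stimulated core 21 to 12 bases before its start, found in 2.98%. The gamma-activated form TTCNNNGAA, found in 7.02%, occurred in H2-DMb2. None of the 5 forms occurred in the H2-DMa and Ifi30 windows, which says only that these letters are not there. The H2-DMa windows (chr17:34122672-34122821 and chr17:34125368-34125517) lie inside the annotated gene (chr17:34119541-34139101). The H2-DMb2 window shown also lies inside its annotated gene (chr17:34143307-34151555). For H2-DMb1, base 120 before the start is the last before the annotated gene, so its X and Y boxes lie inside that gene. The boxes of H2-DMb2 and H2-DMb1 and the H2-DMa windows therefore do not stand before the first annotated positions of these genes. A match is a description of the sequence, and the forms were selected after the sequences had been seen.

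H2-DMa (ENSMUSG00000037649.10, chr17:34119541-34139101, plus strand) encodes the alpha chain of the peptide exchange factor H2-DM. It measured 9.07, 6.53, 4.44, 9.70 and 3.92 FPKM in control tumors 1 to 5. It measured 23.7, 40.6, 50.3, 32.7 and 59.4 FPKM in Villin-WlscKO tumors 1 to 5. The lowest Villin-WlscKO tumor, tumor 1, was 2.44 times as high as control tumor 4, the highest control. The log2 difference was 2.45 (SE 0.29), from means of 6.73 ± 2.62 and 41.3 ± 14.1 FPKM (SD, n = 5 each). The annotated gene overlaps Brd2 on the opposite strand, and Brd2 was 96.2 ± 4.58 FPKM in control and 98.8 ± 5.44 FPKM in Villin-WlscKO tumors (log2 difference 0.037, adjusted p = 0.752 in limma).

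H2-DMb1 (ENSMUSG00000079547.4, chr17:34153072-34160230, plus strand) encodes the beta chain of H2-DM. Its values were identical to those of the neighbouring copy H2-DMb2 in all 10 tumors, so the level belongs to the pair and not to either gene. The control tumors had 9.39, 6.15, 4.21, 7.44 and 6.50 FPKM. The Villin-WlscKO tumors had 37.6, 53.6, 68.5, 42.3 and 72.2 FPKM. All of these lay far above the controls, the lowest being 4.01 times the highest control, and the log2 difference of 2.84 (SE 0.22) was above that of H2-DMa. H2-DMa over H2-DMb1 ranged from 0.602 to 1.30 in control and from 0.629 to 0.823 in Villin-WlscKO tumors, so the proportion of the chains overlapped between the groups.

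Cd74 (ENSMUSG00000024610.15, chr18:60803848-60812652, plus strand) encodes the invariant chain. It was the highest of the 9 genes in every tumor except control tumor 2, where Ctss had nearly the same level. The microRNA gene Mir5107 inside it carried identical values, so 7 of the 9 genes had values of their own. Cd74 measured 208.5, 147, 131, 236 and 174 FPKM in control tumors 1 to 5. It measured 1040.3, 1528, 1707, 1215 and 1872 FPKM in Villin-WlscKO tumors 1 to 5. The gap was wide, with the lowest Villin-WlscKO tumor 4.41 times as high as the highest control. The means were 179 ± 43.3 and 1472 ± 343 FPKM (SD, n = 5 each), and the log2 difference of 3.03 (SE 0.20) was the largest of the 9. Cd74 over H2-Aa was 1.99 ± 0.329 in control and 3.26 ± 0.539 in Villin-WlscKO tumors (SD, n = 5 each), with ranges of 1.60 to 2.37 and 2.80 to 4.13 that did not overlap. As both genes were chosen by this contrast, nothing is read from the separation of that ratio.

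Ctss (ENSMUSG00000038642.10, chr3:95526786-95556403, plus strand) encodes cathepsin S, the protease that makes the late cuts in the invariant chain. In the control tumors it measured 140.4, 147, 129.5, 155 and 140.2 FPKM. In the Villin-WlscKO tumors it measured 170.1, 173, 239, 159 and 193 FPKM. The groups were separate but close, since the lowest Villin-WlscKO tumor was 1.03 times as high as the highest control. The means of 142 ± 9.21 and 187 ± 31.9 FPKM (SD, n = 5 each) differed by 0.38 on the log2 scale (SE 0.11), a ratio of 1.31.

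Ifi30 (ENSMUSG00000031838.8, chr8:70762774-70766663, minus strand) encodes the thiol reductase GILT, which opens disulfide bonds of antigens in endosomes. It measured 64.3, 51.2, 61.4, 55.3 and 54.6 FPKM in control tumors 1 to 5. It measured 61.3, 69.0, 103, 72.0 and 93.5 FPKM in Villin-WlscKO tumors 1 to 5. Villin-WlscKO tumor 1 lay below control tumors 1 and 3, so that the groups overlapped. With each tumor scaled to the same FPKM sum they did not overlap, and then all 9 genes were separate against 8.51% of genes tested. The log2 difference was 0.45 (SE 0.14).

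The Villin-WlscKO tumors were ordered alike by most of the genes. Tumor 5 was the highest for H2-Aa, Cd74, Ciita, H2-DMa and H2-DMb1, and tumor 3 for H2-Ab1, H2-Eb1, Ctss and Ifi30. Tumor 1 was the lowest for 6 genes and tumor 4 for H2-Aa, Ciita and Ctss. Among controls, tumor 3 was the lowest for 7 of the 9. Within the groups, each gene's deviations from its group means were set against the mean of the 9, in which each gene takes part. Over the 10 tumors Pearson's r was 0.978 for H2-Ab1, 0.970 for H2-DMb1, 0.969 for H2-Aa, 0.953 for H2-Eb1, 0.928 for Cd74 and 0.914 for H2-DMa. It was lower for Ciita (0.828), Ctss (0.759) and Ifi30 (0.731). Tumors 1, 4 and 5 of the Villin-WlscKO group, without the squamous signal, lay above every control for the 8 genes other than Ifi30. That follows from the separation already described for the whole group, so nothing is read from it. With tumors 2 and 3 left out, 8.87% of all genes tested were separate in this direction.

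Professional antigen-presenting cells are one place where these transcripts are made, and their markers were summed in each tumor. In bulk tumors fewer cells of a type and less RNA per cell cannot be told apart. Macrophage markers (11 of 12 listed were measured, among them Csf1r, Adgre1, Cd68 and Lyz2) summed to 349.8 to 942 FPKM in control and 308 to 614 FPKM in Villin-WlscKO tumors. Lyz2 alone made up much of this sum, with 179 to 602 and 170 to 380 FPKM. Dendritic cell markers (6 of 10, among them Itgax) summed to 9.53 to 20.3 and 7.12 to 21.2 FPKM. Itgax alone was 4.98 to 10.7 and 3.48 to 9.90 FPKM, and Clec9a and Clec10a share their values with Clec1b and Mgl2. B cell markers (3 of 8) were low, at 0.366 to 1.95 and 1.88 to 7.35 FPKM, with Ms4a1 listed at 0 in some tumors. All 3 sums overlapped between the groups. None of the 11 macrophage, 6 dendritic cell or 3 B cell markers passed limma's test at an adjusted p of 0.05, and 1, 1 and 2 had an unadjusted p below that value. The median log2 differences were -0.029, -0.21 and 0.67.

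Broader leukocyte and epithelial markers were summed as well, and both sums overlapped between the groups. The 5 leukocyte markers summed to 53.3 to 94.1 FPKM in control and 66.4 to 144 FPKM in Villin-WlscKO tumors, and 1 of them passed, Lcp1, which encodes an actin-bundling protein (log2 difference 0.91, adjusted p = 0.0381 in limma). The 9 epithelial markers summed to 6110 to 8619 and 7475 to 9588 FPKM. Of these Krt20, a keratin of differentiated colonocytes, passed (log2 difference 0.91, adjusted p = 0.0156 in limma), and Krt19 shares its values with other keratins. All 9 had positive differences, with a median of 0.25, and 5 had an unadjusted p below 0.05 in limma. Without Krt19 the sum was 3793 to 4970 FPKM in control and 4633 to 5914 FPKM in Villin-WlscKO tumors, which also overlapped.

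The 6 class II chain and chaperone transcripts (H2-Aa, H2-Ab1, H2-Eb1, Cd74, H2-DMa and H2-DMb1) summed to 277 to 538 FPKM in control and 1843 to 3531 FPKM in Villin-WlscKO tumors. Per unit of macrophage markers the sum was 0.561 to 1.07 in control and 3.44 to 11.5 in Villin-WlscKO tumors. Among Villin-WlscKO tumors 1 to 5 the class II sums were 1843, 2857, 3371, 2074 and 3531 FPKM, beside macrophage sums of 348, 548, 614, 603 and 308 FPKM. Among control tumors 1 to 5 the class II sums were 538, 368, 277, 529 and 370.2 FPKM, beside macrophage sums of 502, 422, 349.8, 942 and 493 FPKM. Control tumor 3 was the lowest and control tumor 4 high in both, and Villin-WlscKO tumor 1 was low and tumor 3 high in both. Villin-WlscKO tumor 5 was high in class II and low in macrophage markers, and tumor 4 was low in class II and high in macrophage markers. Per unit of leukocyte markers the sum was 3.98 to 6.89 and 19.8 to 50.1, and per unit of epithelial markers 0.0321 to 0.0866 and 0.199 to 0.373. None of these 3 ratios overlapped between the groups, which the choice of the class II genes by their difference fixes where the marker sums overlap, so nothing is read from it. Which cells carried the transcripts was not measured, and the part of cell composition in the difference was not tested.

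**Figure D2:**
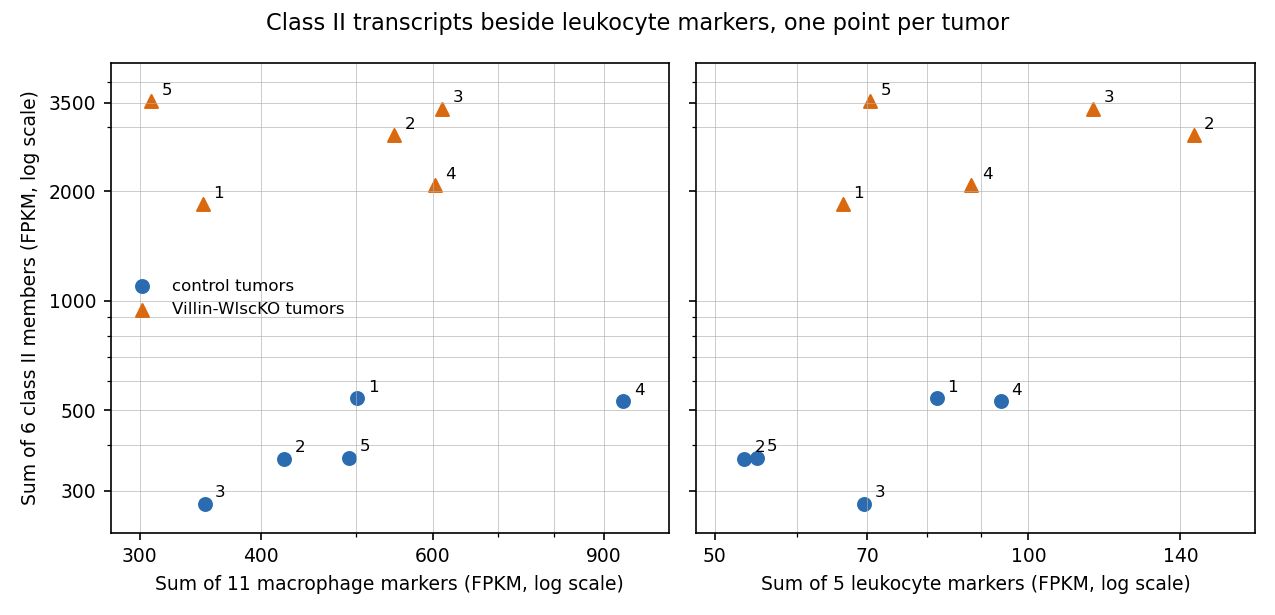
Summed level of 6 class II transcripts (vertical, FPKM, log scale) against the summed level of 11 macrophage markers (left) or 5 leukocyte markers (right), with 1 numbered point per tumor (circles, control, and triangles, Villin-WlscKO). The triangles lie at 1843 to 3531 FPKM and the circles at 277 to 538 FPKM, while both groups share a range of marker levels on each horizontal axis.

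The other genes of the pathway were taken from 7 lists of 54 names, of which 42 genes could be tested. Of these 42, 9 were higher and 2 lower in Villin-WlscKO tumors and 31 did not pass, with a median log2 difference of 0.11. Over all genes tested 10.9% passed in either direction and 6.12% were higher. The group of further class II molecules, such as H2-Oa and H2-Ob, held no gene that could be tested apart from the copy H2-DMb2, which is counted with H2-DMb1.

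Factors that bind class II promoters did not pass the test in any case. Rfx5, a subunit of the X box complex, was 12.5 ± 0.954 FPKM in control tumors against 12.6 ± 1.17 FPKM (SD, n = 5 each, log2 difference 0.0076, adjusted p = 0.972 in limma). Together with Rfxap, Rfxank, the Y box subunits Nfya, Nfyb and Nfyc, and Creb1, 0 of 7 had an adjusted p below 0.05 and 0 an unadjusted p below it. Their differences lay between -0.06 and 0.12.

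Of the genes for input through interferon-gamma, 3 of the 7 reported here rose. Irf1, a transcription factor that acts at the Ciita gene, had 45.2, 55.1, 49.7, 44.5 and 49.7 FPKM in the control tumors. In the Villin-WlscKO tumors it had 149.9, 139, 157, 111 and 138 FPKM. The groups lay far apart, and the log2 difference was 1.48 (SE 0.098, adjusted p = 1.2e-05 in limma). Socs1, a feedback inhibitor of the pathway, rose from 3.19 ± 1.07 to 12.1 ± 4.90 FPKM (log2 difference 1.60, SE 0.27, adjusted p = 0.00463 in limma).

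The receptor chains differed from each other. Ifngr1, the ligand-binding chain, rose from 66.7 ± 9.21 to 102 ± 19.7 FPKM (SD, n = 5 each, log2 difference 0.59, adjusted p = 0.0228 in limma). Leaving out control tumor 2, 4 or 5 or Villin-WlscKO tumor 5 moved the adjusted p of Ifngr1 to between 0.0506 and 0.0568. Ifngr2, the other chain, had a difference of -0.27 (adjusted p = 0.134 in limma), and the kinases Jak1 and Jak2 had 0.13 and 0.23 (adjusted p = 0.125 and 0.0888). The ligand gene Ifng was too low for the test. It was listed at 0 in control tumors 1, 2, 3 and 5 and at 0.0584 FPKM in control tumor 4, and measured 0.648, 1.35, 0.719, 0.185 and 0.387 FPKM in Villin-WlscKO tumors 1 to 5. Every Villin-WlscKO value of Ifng lay above the controls. Tumor 4 was the lowest of the group in both Ifng and Ciita and tumor 2 the highest in Ifng and next to highest in Ciita, while tumor 5 was the highest in Ciita and next to lowest in Ifng.

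**Figure D3:**
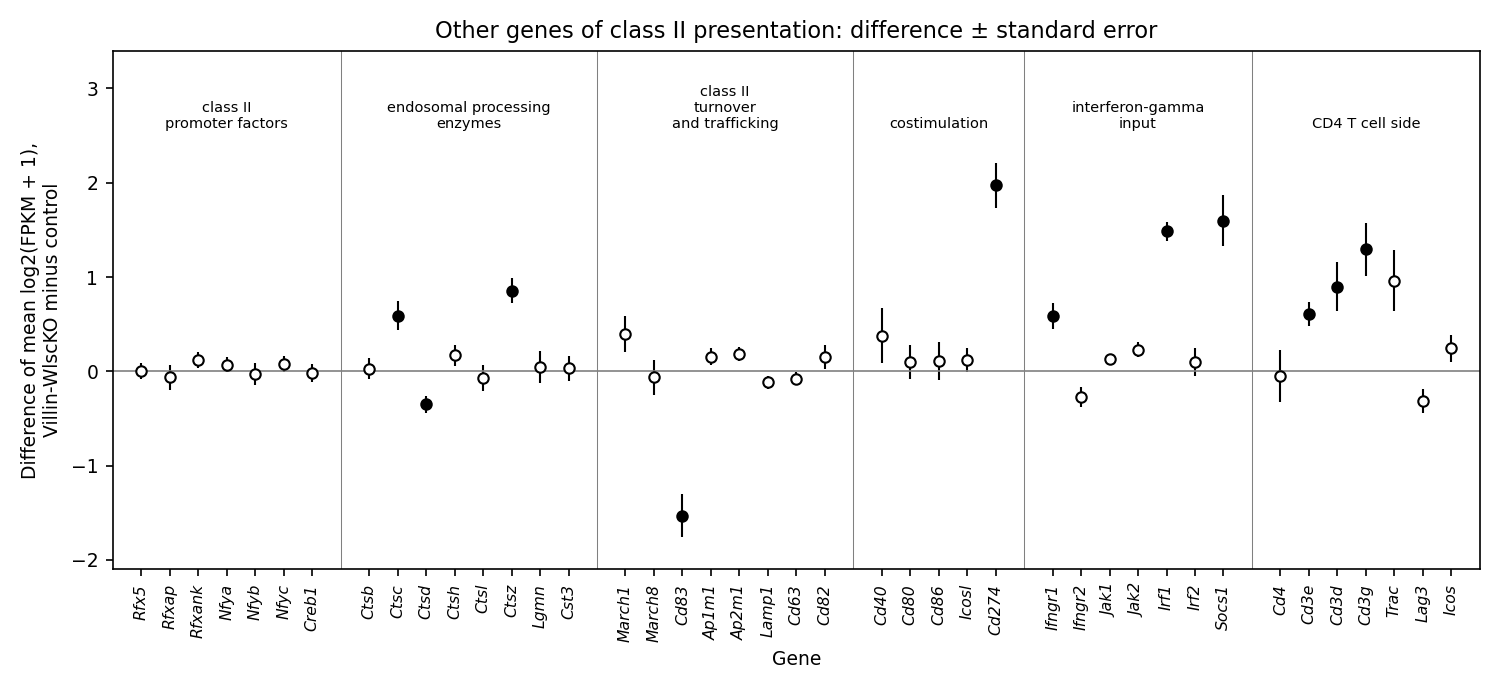
Difference between the group means of log2(FPKM + 1), with control subtracted from Villin-WlscKO, and its standard error in limma, for 42 genes of class II presentation grouped by role. Filled points passed the test (9 higher and 2 lower) and open points did not, and the promoter factors on the left lie close to 0.

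Among 8 genes of endosomal processing 2 rose and 1 fell. Ctsz, a carboxypeptidase, rose from 83.1 ± 15.7 to 149 ± 13.1 FPKM (SD, n = 5 each, log2 difference 0.86, SE 0.13, adjusted p = 0.00237 in limma), and its lowest Villin-WlscKO tumor, at 139 FPKM, was above its highest control, at 98.4 FPKM. Ctsc, a dipeptidase that activates other proteases, rose by less (log2 difference 0.59, adjusted p = 0.0349). Ctsd, an aspartic protease, fell (log2 difference -0.35, adjusted p = 0.0324), and it shares its values with Ifitm10. Leaving out 1 tumor ended the call of Ctsc for control tumor 1, 2 or 5 and Villin-WlscKO tumor 1, 2, 3 or 4 (adjusted p between 0.0535 and 0.0852). For Ctsd it did so for control tumor 1, 4 or 5 and Villin-WlscKO tumor 1, 2, 3 or 5 (0.0590 to 0.0743). Both calls also ended without Villin-WlscKO tumors 2 and 3 (adjusted p = 0.163 for Ctsc and 0.111 for Ctsd), that of Ctsc with quantile normalization (0.0606) and that of Ctsd with equal FPKM sums (difference -0.24, adjusted p = 0.137). The invariant chain proteases Lgmn and Ctsl had differences of 0.043 and -0.073.

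Of 8 genes of class II turnover and trafficking 1 passed. Cd83, which keeps class II and Cd86 on the surface by opposing the ubiquitin ligase March1, measured 9.84, 7.72, 3.55, 6.95 and 8.35 FPKM in control tumors. In Villin-WlscKO tumors it measured 1.58, 2.03, 2.65, 1.27 and 1.45 FPKM. Cd83 thus fell while class II chains were high, without overlap between the groups (log2 difference -1.53, SE 0.23, adjusted p = 0.00227 in limma). March1 had a difference of 0.40 (adjusted p = 0.225).

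The costimulatory genes behaved unequally. Cd274, which encodes the inhibitory ligand PD-L1, rose from 2.08 ± 0.536 to 11.6 ± 4.06 FPKM (SD, n = 5 each, log2 difference 1.97, SE 0.24, adjusted p = 0.000666 in limma). The other 4 did not pass. Cd40 had a difference of 0.38, Cd80 of 0.096 and Cd86 of 0.11 (adjusted p = 0.468, 0.795 and 0.798), and Icosl one of 0.12.

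Of 7 genes listed for the side of the CD4 T cell, 3 rose, all of them chains of the T cell receptor complex CD3. Which T cells carried these transcripts was not measured. Cd3g had a log2 difference of 1.30, Cd3d of 0.90 and Cd3e of 0.61 (adjusted p = 0.0159, 0.0494 and 0.0138 in limma). Cd3d and Cd3e were low, with control means of 0.481 and 0.364 FPKM, below the pseudocount of 1. With a pseudocount of 0.1 their differences were 1.82 and 1.345. The groups of Cd3d overlapped. Cd4 itself was 3.07 ± 1.41 FPKM in control tumors against 2.88 ± 1.02 FPKM (SD, n = 5 each), a difference of -0.049 (adjusted p = 0.940 in limma). Trac, whose values are shared with other names, Icos and Lag3 had differences of 0.96, 0.25 and -0.32. They did not pass (adjusted p = 0.0883, 0.309 and 0.146 in limma). Without Villin-WlscKO tumors 2 and 3 none of the CD3 genes passed (adjusted p = 0.0607 for Cd3g, 0.186 for Cd3d and 0.0550 for Cd3e). Cd3d also lost its call without 8 of the 10 tumors in turn, all but control tumor 4 and Villin-WlscKO tumor 1, with adjusted p between 0.0640 and 0.113, and with median ratio scaling (0.0503).

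H2-DMa, H2-DMb1, H2-Ab1, H2-Aa and H2-Eb1 lie within one stretch of chromosome 17, together with genes of the class I pathway. In the region from 150 kb below the first to 150 kb above the last (chr17:33969541-34466674), 16 further genes were tested, and 7 were higher, 0 lower and 9 not called. Over all genes tested 6.12% were higher. The region was added after its values had been seen, so nothing is read from the count. Among those not called, H2-Ke6, Gm20427 and Slc39a7 share all their values and so are a single measurement. Between the H2-DM genes and the chains lie Psmb9 and Psmb8, subunits of the immunoproteasome, and Tap1 and Tap2, the peptide transporter of class I loading. Their log2 differences were 2.99, 3.05, 3.03 and 2.22 (adjusted p = 1.96e-05, 3.15e-05, 2.52e-05 and 6.1e-05 in limma). The class I gene H2-K1 had 2.60 and the butyrophilin-like gene Btnl2 had 1.60 (adjusted p = 4.61e-05 and 0.000897 in limma). Btnl2 was low, with means of 0.085 FPKM in control and 2.42 FPKM in Villin-WlscKO tumors. The antisense gene Gm20496, which overlaps Psmb8 and Tap2, was the remaining call, with means of 0.415 and 3.38 FPKM. Both genes had control means below the level required for the test, which they reached through the Villin-WlscKO tumors. The default parameters do not use strand, so reads of Gm20496 and of the genes it overlaps may not be told apart. Next to H2-DMa, Brd2 had the difference of 0.037 given with that gene, and the 7 genes from Ring1 to Brd2 did not pass.

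**Figure D4:**
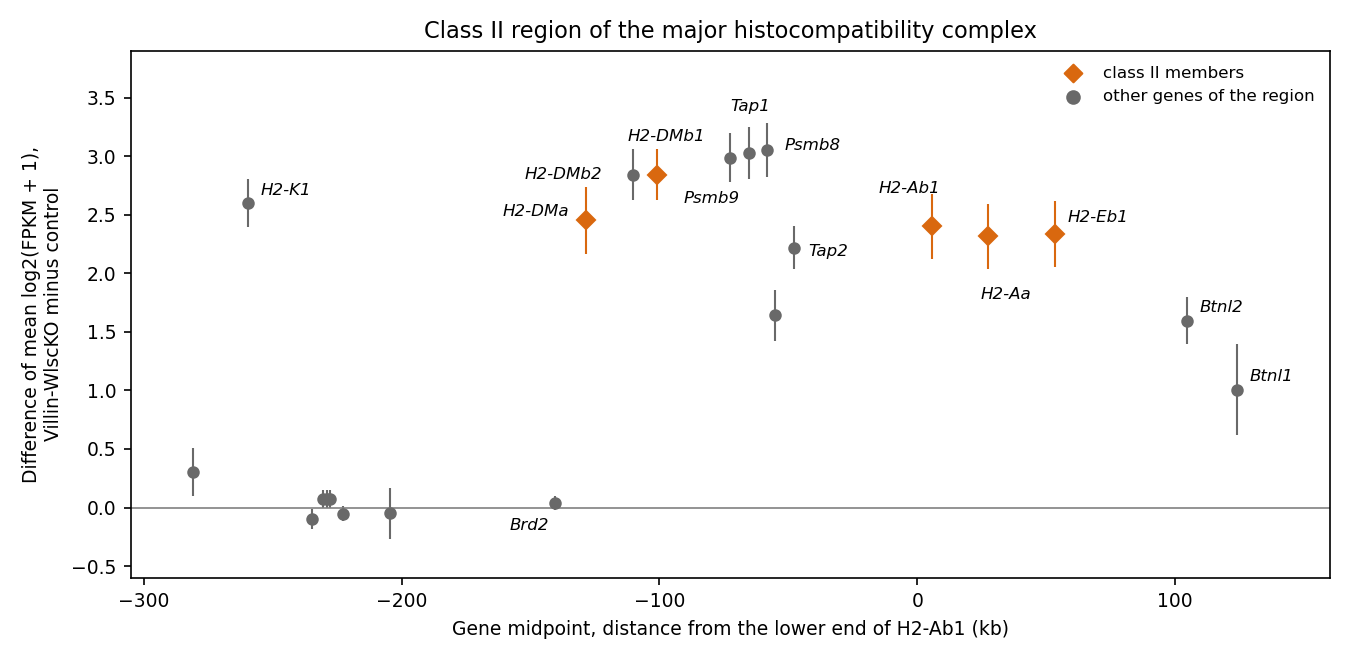
Difference between the group means of log2(FPKM + 1), with control subtracted from Villin-WlscKO, and its standard error in limma, for the genes of the class II region of chromosome 17, by the distance of the gene's midpoint from the lower end of H2-Ab1 in kb. Diamonds mark the 5 class II genes described here, between 2.32 and 2.84, circles the other genes including the copy H2-DMb2, and Brd2 near 0 lies beside them.

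Genes whose pattern within the groups was most like that of the 9 were sought among 10601 genes with a mean of at least 5 FPKM. The 5 closest were Vwf (r = 0.948), Rhod (0.926), H2-Q6 (0.926), H2-Q7 (0.913) and Il18bp (0.904) over the 10 tumors, which share their libraries with the class II values. These r were picked as the highest of 10601 over only 10 tumors. Whether unrelated genes reach such values was not tested. Alike within groups was not alike between them. Vwf, an endothelial clotting factor, had a difference of -0.45 and the small GTPase gene Rhod one of -0.20 (adjusted p = 0.358 and 0.331 in limma). H2-Q6 and H2-Q7, nonclassical class I genes so similar that reads may be split between them, rose by 4.71 and 5.18 on the log2 scale (adjusted p = 4.83e-05 and 1.13e-05 in limma). Il18bp, which encodes a decoy for interleukin-18, rose from 3.09 ± 1.10 to 20.5 ± 7.56 FPKM (SD, n = 5 each, log2 difference 2.35, adjusted p = 0.000481 in limma).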

How the data were processed

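Messenger RNA of 5 control and 5 Villin-WlscKO macrodissected colon tumors was sequenced with a strand-keeping kit. After FastQC, the authors aligned the reads to GRCm38.p5 using TopHat2 2.1.1 and derived FPKM per gene name and tumor with Cufflinks 2.2.1 and Cuffdiff; the deposited values are these FPKM. The tools were run with default parameters, which treat a library as unstranded, although the kit keeps strand. The annotation release and how gene names were chosen are not given in the sources used here. Groups come from the genotype labels, and 0 value columns were left unassigned. The FPKM sum of a control tumor was 1265990 to 1533880 and that of a Villin-WlscKO tumor 1207680 to 1341490. Among 277 low genes at most 6 gave the same ratio between tumors, so no read number was recovered, depth is unknown and precision rests on the spread between tumors. Of the names, 2419 shared all values with another.

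Values were fitted as log2(FPKM + 1) by limma 3.58.1 (R 4.3.3) over the 16757 genes with a mean of at least 0.5 FPKM, with a variance trend, no covariate, and a two-sided test with a Benjamini-Hochberg adjusted p under 0.05. Summaries and figures used Python 3.11.15, numpy 2.4.6, pandas 2.3.3 and matplotlib 3.10.9. Tested on simulated data for this comparison (16757 genes, 200 changed), it recovered 165, 187 and 199 genes at log2 changes of 1, 2 and 3 with 12, 8 and 15 false calls, and made 0 calls with no gene changed. The changed genes were drawn from those with a mean log2(FPKM + 1) above 2, so recovery of lower genes was not tested. Pearson correlations of tumors lay between 0.918 and 0.976. Same-numbered tumors correlated by 0.0638, -0.0868, 0.0626, 0.100 and 0.162 after removal of group means, and nothing says that a number marks a shared mouse or day, so they were not paired.

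The genes and lists were chosen with earlier results of these data known. Named are the 9 genes, names with values identical to theirs, list genes past the threshold and those that define a list, Wls, Xist, Eif2s3y and the 5 genes most alike in pattern; 1 gene of the interferon-gamma list is not reported here; Dexi and the genes of the class II region were added after their values were seen. Alternatives were other pseudocounts, scalings, filters and variance settings, a replicate block, identical names counted once, and tumors left out. Gene positions are from GENCODE M21 on GRCm38, promoters from RefSeq.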

Additional observations from a re-analysis of the deposited data

Results flagged for a closer look

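Over 40 groups of 5 tumors (20 named genes in 2 groups), 2 held a tumor far from the others by Dixon's test, where chance gives about 1 in 20. Ciita in control tumor 1, at 0.8755 FPKM, stood above the next control at 0.5083 FPKM, with a gap of 0.760 of the group's range. Control tumor 1 was also the highest control for H2-Aa, H2-Ab1, H2-Eb1, H2-DMb1 and Ifi30. Ctsz in Villin-WlscKO tumor 3, at 172.2 FPKM, stood above the next at 146.2 FPKM, with a gap of 0.768 of the range. Tumor 3 was the highest Villin-WlscKO tumor for H2-Ab1, H2-Eb1, Ctss and Ifi30 as well.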

How the results depend on the processing

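No result reversed under any alternative run. The median log2 difference of the 9 genes lay between 2.16 and 2.51 and each gene kept its direction, the value of Ciita moving most, from 2.30 to 3.42 with a pseudocount of 0.1, 3.63 as the log2 ratio of means and 3.96 as that of medians. Against 1822 genes differing (1026 higher and 796 lower), 1101 were left in number without Villin-WlscKO tumors 2 and 3 (655 higher and 446 lower), with 5 higher and 1 lower pathway genes, against 9 and 2 with all tumors. Leaving out 1 tumor gave 1229 to 1986 genes, 695 to 1178 higher and 507 to 808 lower (507 without control tumor 2), with 6 to 8 pathway genes higher and 1 to 2 lower. Scaling to equal FPKM sums moved the median of all genes to 0.097, gave 410 lower genes and 1 lower pathway gene, and raised the share of calls that were higher from 56.3% to 77.0%, whereas quantile normalization gave 44.2% and 4 lower pathway genes. With a mean of at least 5 FPKM 1 pathway gene was lower. The replicate block, though the numbers do not pair the tumors, gave 1627 genes and 7 higher and 1 lower pathway gene, and Ctsd, Cd3d and Cd3g lost their calls (adjusted p = 0.0597, 0.117 and 0.0674 in limma). The causes of these shifts were not tested. Unknown read depth limits what can be said of Ciita, Cd3e, Cd3d, Btnl2 and Gm20496 in controls and of Ifng.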
